A study of Mus musculus with 3 samples.

Results

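The genes described here are 8 members of the prostaglandin pathway, out of 32285 genes in the count tables. They are the cyclooxygenases Ptgs1 and Ptgs2, the prostaglandin E synthase Ptges, the prostaglandin D synthase Ptgds, the prostaglandin dehydrogenase Hpgd, the prostaglandin transporter Slco2a1 and the prostaglandin E receptors Ptger2 and Ptger4. They were taken by symbol, and all 8 symbols were found, each on a single row. The set was selected on levels measured in these cells, after the endothelial Hpgd difference between libraries was known, so every level and ratio below is a description without a test. A further 41 genes of prostanoid and leukotriene metabolism are given for context.

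Single cells were profiled from 3 libraries of mouse tumour tissue, with 1 library for each group. The library labelled CKO+RI, read here as host mice that lack Sfrp2 in cells using the Col1a2 promoter, came from mice given radiation together with an immune checkpoint inhibitor. The Flox+RI library came from Sfrp2 fl/fl hosts, whose gene is flanked by loxP sites and intact, with the same combined treatment. The Flox+ICI library came from Sfrp2 fl/fl hosts given the checkpoint inhibitor without radiation. All hosts carried tumours of LLC1-sgLkb1, Lewis lung carcinoma cells with LKB1 knocked down, as lung lesions seeded through the tail vein and as a later subcutaneous tumour on the irradiated side. The time from tail vein to subcutaneous injection was 3 weeks in each group. The labels call the tissue tumour and do not say which of the lesions each library came from, nor how many mice. By their labels, CKO+RI and Flox+RI differ in host genotype under the same treatment, and Flox+RI and Flox+ICI differ in added radiation in the same host genotype. Both comparisons use the Flox+RI library, so anything peculiar to it enters both. Flox+RI also held fewer lung cells: endothelial cells were 4.6%, 1.08% and 5.02% of kept cells in CKO+RI, Flox+RI and Flox+ICI, alveolar type 2 cells 1.78%, 0.607% and 3.99%, and alveolar macrophages 2.53%, 0.427% and 2.94%. With 1 library a group, this difference in tissue content cannot be told apart from genotype or radiation.

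Prostaglandins are short-lived lipid signals made from arachidonic acid, which phospholipases cut from membranes. Cyclooxygenases turn it into an unstable intermediate, and terminal synthases turn that into prostaglandin E, D, F, prostacyclin or thromboxane. In tumours prostaglandin E is known for dampening T cells, NK cells and dendritic cells through its cAMP-raising receptors, which Ptger2 and Ptger4 encode. The signal is ended when the transporter Slco2a1 carries prostaglandins into a cell and the dehydrogenase Hpgd oxidises them there. The lung is the main organ that clears prostaglandins from the blood, and its capillary endothelium is a known site of that uptake.

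The CKO+RI library held 161250286 UMIs, the Flox+RI library 101840883 and the Flox+ICI library 75543561, where a UMI marks a single captured RNA molecule. After filters 8383, 11706 and 9778 cells remained, with median depths of 13406, 2576.5 and 3018 UMIs in the order CKO+RI, Flox+RI, Flox+ICI, which all lists of 3 values below follow. Pairs of libraries shared 31 to 37 cell barcodes. Cells were grouped into 24 clusters named from marker genes, 3 of which stayed unnamed. The Sfrp2 transcript went against the genotype label, with 46, 3 and 6 UMIs in all kept cells and 37, 1 and 3 of them in the fibroblast-like class, where its level was 25.5, 1.56 and 3.99 UMIs per 1000000. The counts do not show which part of the gene they come from, so they do not settle whether the label is right, and CKO+RI below stands for the library labelled so, with no direction read as an effect of genotype. Levels are UMIs per 1000000 UMIs of the same class and library (CPM), with exact Poisson 95% intervals in square brackets. Ratios carry exact conditional binomial 95% intervals and shares of cells exact binomial (Clopper-Pearson) ones. With 1 library a group these intervals cover counting error only, there is no replicate check, and no p-value can be given.

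The members were spread unevenly over the cell classes, and some shared their leading class. Over all libraries Hpgd stood at 960 CPM in endothelial cells and at 75.6 CPM in the next class, the fibroblast-like one. Slco2a1 stood at 565 CPM in endothelial cells and 238 CPM in alveolar type 2 cells, the surfactant-making epithelium of the lung. Among whole classes Ptges was highest in tumour cells, at 205 CPM, Ptgs1 in alveolar type 2 cells, at 164 CPM, and Ptgs2 in neutrophils, at 134 CPM. The receptor Ptger4 was highest in alveolar macrophages, NK cells and T cells, at 48.1, 47.9 and 46.2 CPM, an order whose steps are smaller than the differences between libraries. Classical monocytes had 36.2 CPM of Ptger4 from 153 UMIs. With the same weight for each library they were the highest class, at 46.2 CPM. The plot of levels by class shows these levels in each library, and the plot of UMI origin shows how few classes carry each gene.

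**Figure D1:**
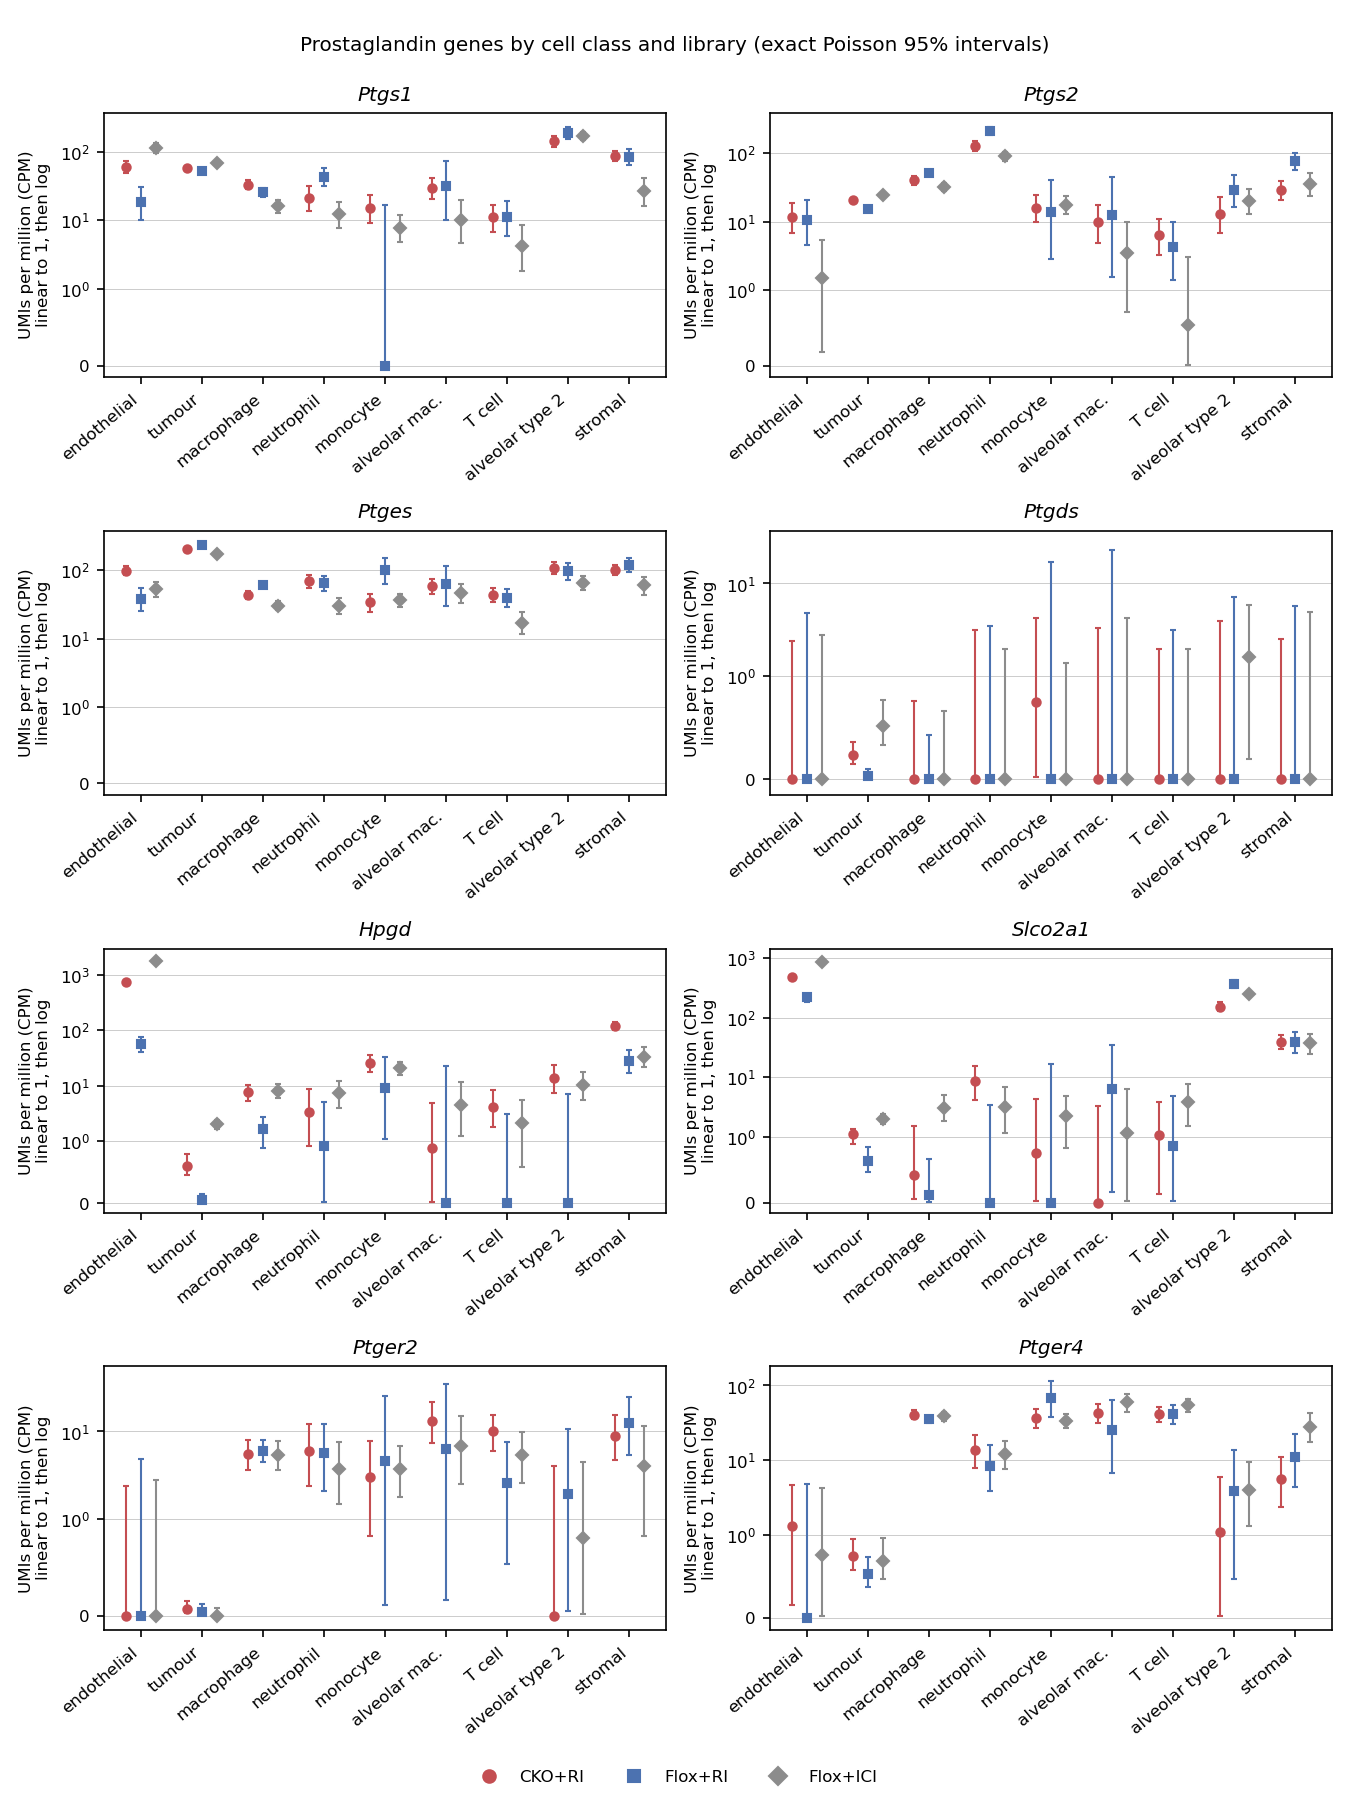
Level of each of the 8 genes in 9 cell classes, as UMIs per 1000000 class UMIs (CPM, linear below 1 and logarithmic above) for the CKO+RI, Flox+RI and Flox+ICI libraries, with exact Poisson 95% intervals. Hpgd lies at 720, 56.0 and 1761 CPM in endothelial cells and below 1 to 8.14 CPM in tumour cells, macrophages and neutrophils, while Ptges lies between 174 and 231 CPM in tumour cells of all 3 libraries.

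**Figure D2:**
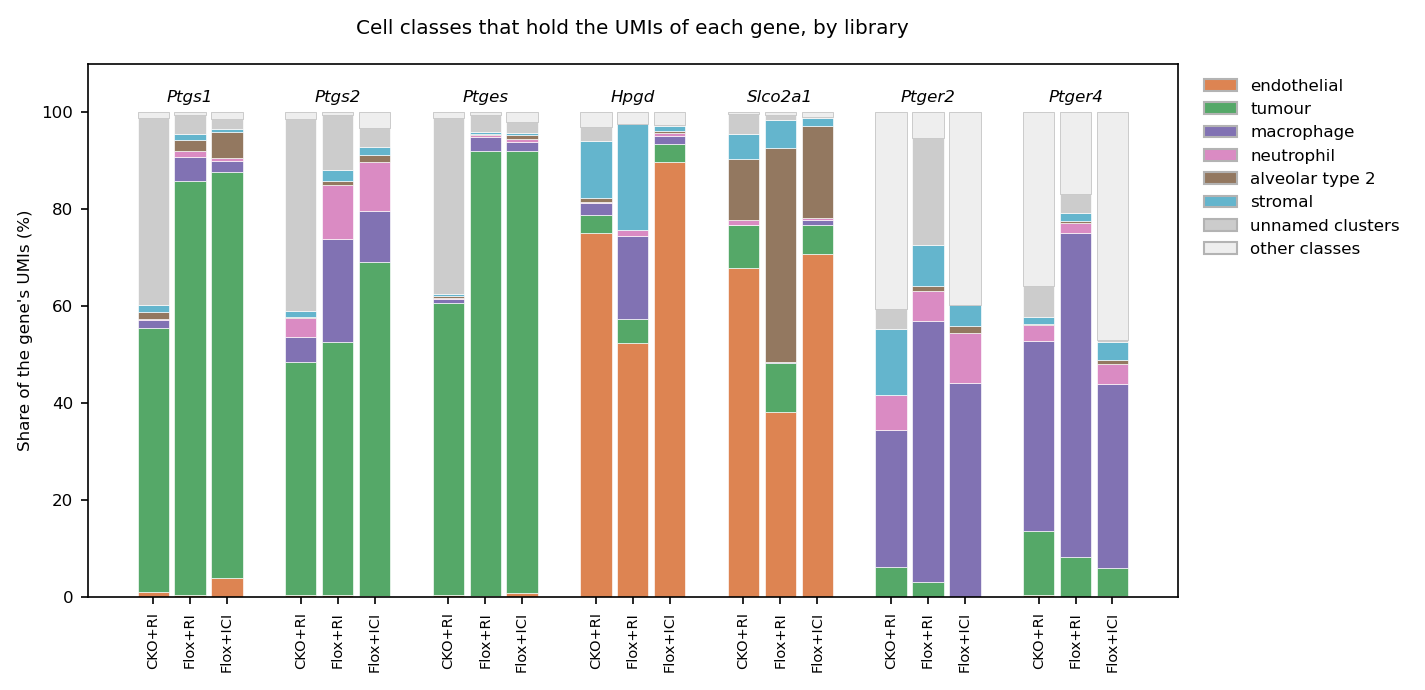
Share of the UMIs of 7 genes held by each cell class (percent, stacked), by library; Ptgds is left out because only 56 of its UMIs were seen. Endothelial cells hold 75.1%, 52.4% and 89.7% of Hpgd, and tumour cells hold 60.2%, 91.7% and 91.2% of Ptges in CKO+RI, Flox+RI and Flox+ICI.

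Hpgd, the enzyme that inactivates prostaglandins, differed more between libraries in the endothelium than the other members measured there. The endothelial class held 1111 Hpgd UMIs in CKO+RI (386 cells), 43 in Flox+RI (126 cells) and 2338 in Flox+ICI (491 cells). These counts gave 720 CPM [678 to 763], 56.0 CPM [40.6 to 75.5] and 1761 CPM [1691 to 1834]. The intervals of the 3 libraries do not overlap, with Flox+RI lowest and Flox+ICI highest. Hpgd was 12.8-fold higher in CKO+RI than in Flox+RI [9.47 to 17.8], and 31.4-fold lower in Flox+RI than in Flox+ICI [23.3 to 43.5]. The median endothelial cell had 1440.5, 4139 and 1384 UMIs, so the library with the lowest level had the deepest endothelial cells. Counted with the same weight for each cell the log2 ratio was 3.09 for CKO+RI over Flox+RI and -3.92 for Flox+RI over Flox+ICI, against 3.68 and -4.97 from summed UMIs, and among cells with at most 10% mitochondrial UMIs the first was 2.98.

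The share of endothelial cells with an Hpgd UMI was 53.4%, 11.9% and 77.4%. When each cell was thinned to 1000 UMIs, which left out 130, 14 and 154 shallower cells, the shares were 49.6% of 256 cells, 6.25% of 112 cells and 73.9% of 337 cells. Neutrophils, taken as cells that should lack this enzyme, had shares of 0.573% of 524, 0% of 145 (an upper bound of 2.51%) and 0.441% of 907 cells at the same 1000 UMIs, and their unthinned median depths were 1814, 711 and 1058 UMIs. The interval in Flox+RI endothelium, 2.55% to 12.5%, lay just above that background.

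Hpgd (ENSMUSG00000031613) lies on mouse chromosome 8, at chr8:56294585-56321043 on the + strand of GRCm38. Slco2a1 (ENSMUSG00000032548) lies at chr9:102988712-103096002, also on the + strand. Both are shown by the 250 bases before their RefSeq starts (GRCm38.p6), as the members with the highest pooled levels in the endothelium. The windows are chr8:56294302-56294551 and chr9:103008237-103008486, each read 5′ to 3′ on the + strand. The Slco2a1 window lies inside the gene span given above, because that span begins further upstream than the RefSeq start used here. Capitals mark AGGAA, the core bound by ETS factors, on either strand (TTCCT where it lies on the opposite strand), and TATAAA, the TATA box.
Hpgd: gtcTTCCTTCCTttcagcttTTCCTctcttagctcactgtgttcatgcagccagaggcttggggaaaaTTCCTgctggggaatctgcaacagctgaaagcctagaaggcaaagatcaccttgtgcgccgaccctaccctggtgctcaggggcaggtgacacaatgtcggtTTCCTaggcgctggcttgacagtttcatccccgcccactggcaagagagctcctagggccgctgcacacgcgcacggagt
Slco2a1: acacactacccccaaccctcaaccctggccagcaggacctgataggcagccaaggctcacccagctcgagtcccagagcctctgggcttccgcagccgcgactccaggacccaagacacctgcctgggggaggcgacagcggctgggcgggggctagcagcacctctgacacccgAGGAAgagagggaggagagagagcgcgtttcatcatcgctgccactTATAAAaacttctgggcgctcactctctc
The Hpgd window held 5 AGGAA cores, all on the opposite strand with the first pair sharing 1 base, and no TATAAA. The Slco2a1 window held 1 AGGAA core and a TATAAA that begins 29 bases before the start. For comparison, AGGAA occurred in 60.3% and TATAAA in 12.4% of 32851 mouse promoter windows of the same length, searched on both strands. AGGAA was found in the windows of 5 of the 8 members and TATAAA in 1. The CCAAT box was in 2 (Ptger2 and Ptger4) and in 33.8% of all windows, while the E-box CACGTG and the cAMP response element core TGACG were in none of the 8, against 6.02% and 17.8% of all windows. GC content was 56.8% for Hpgd and 63.2% for Slco2a1, against a median of 52.4% over all windows. These matches describe the letters in the windows and no binding was measured.

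Endothelial cells were then sorted by marker genes, none of which is a member, into lung capillary, arterial, venous, lymphatic and angiogenic subsets. Aerocytes, the Car4-positive capillary cells of gas exchange, made up 14.8%, 7.94% and 26.1% of endothelial cells. General capillary cells, the other lung capillary type, made up 31.1%, 11.1% and 27.5%. Cells with the angiogenic tumour markers, such as Esm1 and Angpt2, made up 14.2%, 59.5% and 5.70%. The Flox+RI endothelium was thus mostly of the angiogenic kind, and lung capillary cells were the largest gated group in the other libraries. Of the 1003 endothelial cells, 212 (21.1%) lay close to the boundary between subsets, and the shares also depend on which tissue each suspension held, which was not measured.

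Within general capillary cells Hpgd was at 2446 CPM in CKO+RI [2269 to 2633; 120 cells], 388 CPM in Flox+RI [226 to 621; 17 UMIs in 14 cells] and 3120 CPM in Flox+ICI [2935 to 3314; 135 cells]. The ratio was 6.31 for CKO+RI over Flox+RI [3.91 to 10.9], and Flox+RI was 8.04-fold lower than Flox+ICI [5.0 to 13.9]. The order of the libraries in the whole class therefore held inside this subset, with a smaller ratio, although Flox+RI contributed few cells. At 1000 UMIs a cell, 71.7% of 92, 25% of 12 and 91.7% of 109 general capillary cells had an Hpgd UMI.

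Aerocytes had 1171 CPM of Hpgd in CKO+RI [974 to 1396; 57 cells], 682 CPM in Flox+RI [411 to 1065; 19 UMIs in 10 cells] and 2536 CPM in Flox+ICI [2343 to 2741; 128 cells]. Here CKO+RI was 1.72-fold higher than Flox+RI [1.05 to 2.95], and Flox+RI was 3.72-fold lower than Flox+ICI [2.36 to 6.22]. In venous cells the levels were 587, 87.4 and 989 CPM from 96, 5 and 190 UMIs. Arterial cells had 100 UMIs in CKO+RI (44 cells), 0 in Flox+RI (3 cells) and 217 in Flox+ICI (58 cells), too few in Flox+RI to set against the others.

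In CKO+RI and Flox+ICI angiogenic cells had the least Hpgd of the blood vessel subsets. They had 26 UMIs in CKO+RI (55 cells), 1 in Flox+RI (75 cells) and 40 in Flox+ICI (28 cells), or 77.8 CPM [50.8 to 114], 1.67 CPM [0.0423 to 9.30] and 291 CPM [208 to 397]. The ratio of CKO+RI to Flox+RI was 46.6 with an interval of 7.65 to 1910.1, which a single Flox+RI UMI leaves wide. Lymphatic-gated cells had 1, 0 and 67 UMIs in 19, 4 and 29 cells, and in the 4 Flox+RI cells Prox1, which defines lymphatic endothelium, was itself at 0. Pooled over the libraries, Hpgd was 62.6 CPM in angiogenic cells, against 2652 CPM in general capillary cells and 2027 CPM in aerocytes.

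**Figure D3:**
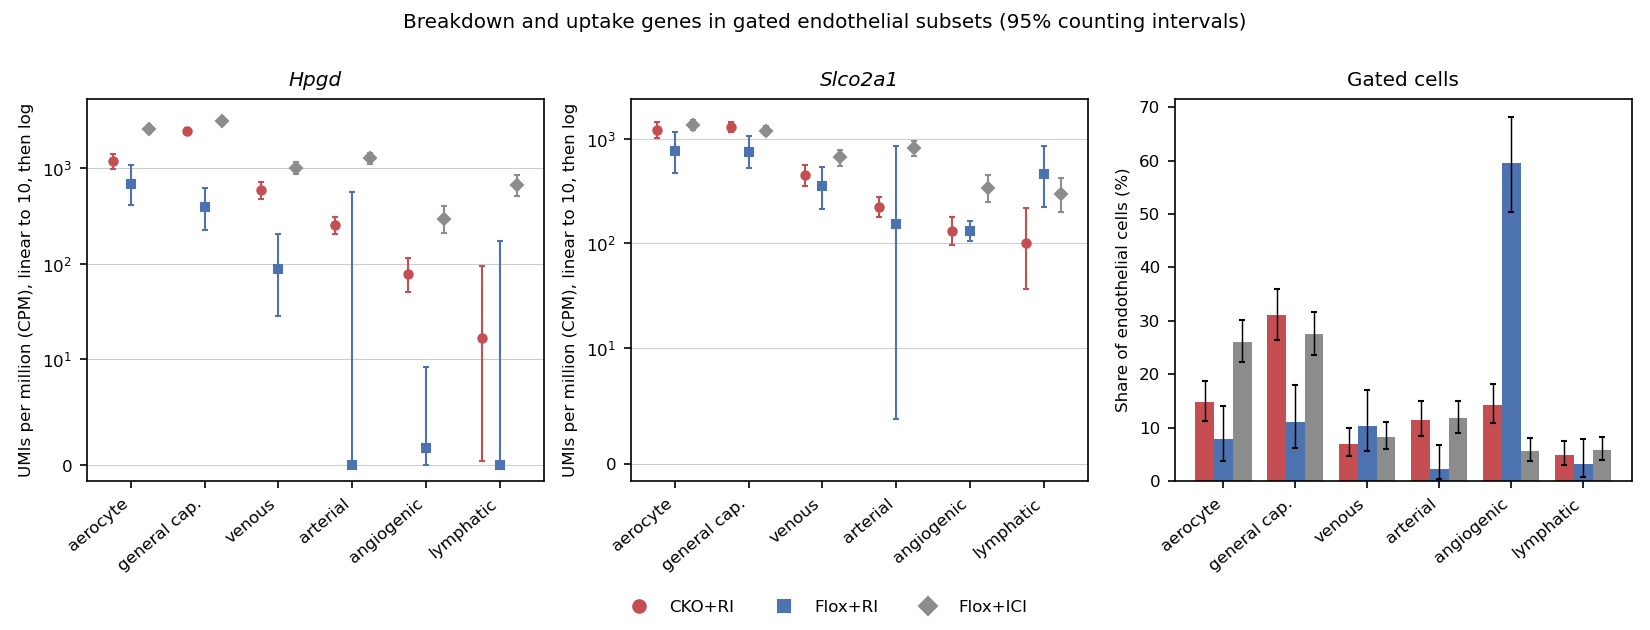
Levels of Hpgd and Slco2a1 (CPM, linear below 10 and logarithmic above, exact Poisson 95% intervals) in 6 gated endothelial subsets, and the share of endothelial cells in each subset (percent, exact binomial 95% intervals), for CKO+RI, Flox+RI and Flox+ICI. Angiogenic cells are 59.5% of Flox+RI endothelium and carry 1.67 CPM of Hpgd there, while Slco2a1 in the same cells is 132 CPM in both CKO+RI and Flox+RI.

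Marker RNA of other cell types within the endothelial class moved between libraries too. The summed tumour markers were 1205, 568 and 695 CPM, with UMIs for 8 of 9 markers and Prl2c2 at 0. Summed alveolar type 2 markers were 593, 219 and 701 CPM, and macrophage markers were 385, 366 and 562 CPM with Adgre1 at 0 in CKO+RI. Haemoglobin and other erythroid markers were 8361, 249 and 405 CPM. Without the 8, 1 and 1 endothelial cells that had over 1% erythroid UMIs the sums were 480, 82.0 and 162 CPM, and the Hpgd log2 ratio was 3.62 for CKO+RI over Flox+RI and -4.95 for Flox+RI over Flox+ICI. The endothelium's own 10 markers all had UMIs in each library and summed to 5656, 6777 and 9493 CPM. The part of foreign RNA in the lesser endothelial signals, given below, was not tested.

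Outside the endothelium the highest Hpgd level was in the fibroblast-like class, which a marker gate split into fibroblast, pericyte or smooth muscle, and mesothelial cells. Mesothelial cells, the lining of the pleura, held 167 Hpgd UMIs in CKO+RI (33 cells), 16 in Flox+RI (10 cells) and 1 in Flox+ICI (2 cells). Their level was 297 CPM in CKO+RI [253 to 345] and 120 CPM in Flox+RI [68.7 to 195], a ratio of 2.47 [1.48 to 4.42]. Fibroblast-gated cells had 9.80, 8.02 and 34.2 CPM from 5, 2 and 16 UMIs. In Flox+ICI they held more Hpgd UMIs than the mesothelial cells but a lower level. The mesothelial level there was 132 CPM, from 1 UMI in 2 cells.

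Classical monocytes came next, with 25.6 CPM in CKO+RI [17.8 to 35.8], 9.14 CPM in Flox+RI [1.11 to 33.0] and 20.9 CPM in Flox+ICI [15.8 to 27.2] from 34, 2 and 56 UMIs. These intervals overlap, so no order of the libraries could be read from them. T cells had 8, 0 and 4 UMIs of Hpgd. Tumour cells had 0.610, 0.0575 and 2.02 CPM from 54, 4 and 97 UMIs. The tumour-class ratio was 10.6 for CKO+RI over Flox+RI [3.91 to 40.4], and Flox+RI was 35.2-fold lower than Flox+ICI [13.3 to 132]. Macrophages had 7.60, 1.65 and 8.14 CPM from 37, 14 and 45 UMIs, 4.61-fold higher in CKO+RI than in Flox+RI [2.43 to 9.23] and 4.94-fold lower in Flox+RI than in Flox+ICI [2.66 to 9.75]. Neutrophils had 4, 1 and 14 UMIs. Summed endothelial markers in tumour cells were 72.7, 110 and 108 CPM, in macrophages 42.5, 118 and 117 CPM, and in classical monocytes 98.0, 247 and 266 CPM. At 1000 UMIs a cell Hpgd was seen in 0.0921%, 0% and 0.319% of tumour cells, no more than in neutrophils, and the part of endothelial RNA in these values was not tested.

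**Figure D4:**
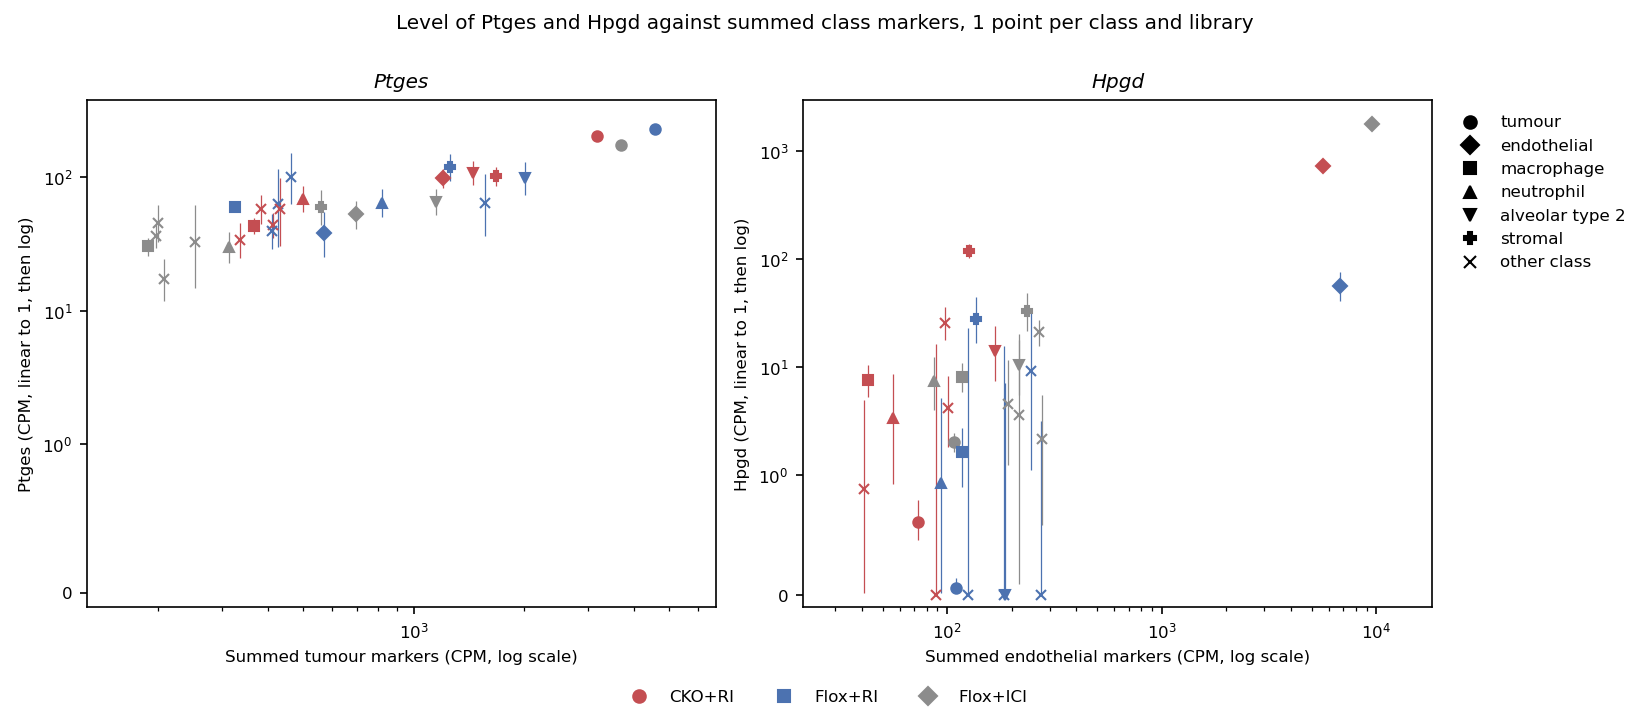
Ptges level against summed tumour markers (left) and Hpgd level against summed endothelial markers (right), both in CPM on logarithmic axes (the y axis linear below 1), 1 point for each class of at least 50 cells in a library, with shapes for classes, colours for CKO+RI, Flox+RI and Flox+ICI, and exact Poisson 95% intervals. The 3 endothelial points lie at 5656 to 9493 CPM of endothelial markers with Hpgd at 720, 56.0 and 1761 CPM, and the 3 tumour points at 3168 to 4583 CPM of tumour markers with Ptges at 174 to 231 CPM.

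Slco2a1, which carries prostaglandins into cells, was also lowest in the Flox+RI endothelium, by a smaller margin. It had 752, 167 and 1135 UMIs there, or 487 CPM [453 to 523], 218 CPM [186 to 253] and 855 CPM [806 to 906]. CKO+RI was 2.24-fold higher than Flox+RI [1.89 to 2.66] and Flox+RI was 3.93-fold lower than Flox+ICI [3.34 to 4.65]. The Slco2a1 log2 ratio for CKO+RI over Flox+RI, 1.16, was 0.47 when only cells with at most 10% mitochondrial UMIs were kept, which ends the 2-fold difference. At 1000 UMIs a cell, 46.9%, 20.5% and 59.3% of endothelial cells had a UMI of it, against 0.184%, 0.0763% and 0.159% of tumour cells, whose unthinned median depths were 25363, 16335 and 14682 UMIs.

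The ratios of Slco2a1 differed from subset to subset, and in general capillary cells, aerocytes and venous cells they were smaller than in the whole class. General capillary cells had 1292 CPM [1164 to 1429], 753 CPM [518 to 1058] and 1188 CPM [1075 to 1310], so CKO+RI was 1.72-fold higher than Flox+RI [1.20 to 2.53]. Aerocytes had 1209, 754 and 1358 CPM from 128, 21 and 341 UMIs. Angiogenic cells had 132 CPM in CKO+RI [95.7 to 177; 44 UMIs], 132 CPM in Flox+RI [104 to 164; 79 UMIs] and 335 CPM in Flox+ICI [245 to 447; 46 UMIs]. In angiogenic cells the ratio of CKO+RI to Flox+RI was 0.998 [0.674 to 1.46], an interval that leaves room for up to 1.48-fold lower or 1.46-fold higher levels in CKO+RI. Flox+RI angiogenic cells thus held 79 UMIs of the transporter and 1 of the dehydrogenase. Venous cells had 446, 350 and 661 CPM, and the ratio of CKO+RI to Flox+RI was 1.28 [0.770 to 2.21]. Lymphatic-gated cells went the other way, at 100 CPM in CKO+RI and 463 CPM in Flox+RI, 4.61-fold lower in CKO+RI [1.52 to 15.4], on 6 and 10 UMIs in 19 and 4 cells. Arterial cells had 223, 153 and 808 CPM from 89, 1 and 139 UMIs, and Flox+RI was 5.30-fold lower than Flox+ICI [0.935 to 211], an interval that its single UMI leaves wide.

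Alveolar type 2 cells, the other site of the transporter, showed another order. They had 152 CPM in CKO+RI [128 to 180], 370 CPM in Flox+RI [320 to 427] and 245 CPM in Flox+ICI [219 to 274], from 149, 71 and 390 cells. CKO+RI was 2.43-fold lower than Flox+RI [1.95 to 3.04], and Flox+RI was 1.51-fold higher than Flox+ICI [1.25 to 1.81]. Of all Slco2a1 UMIs, the alveolar type 2 class held 12.7%, 44.2% and 19.0%, and the endothelium 67.9%, 38.2% and 70.8%. In Flox+RI alone the transporter's level was higher in alveolar type 2 cells than in endothelial cells. Tumour cells had 1.10, 0.632 and 1.98 CPM, 3.13-fold lower in Flox+RI than in Flox+ICI [2.17 to 4.59], with endothelial marker RNA beside them as given above.

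Endothelial cells with an Hpgd UMI more often had a Slco2a1 UMI. At 1000 UMIs a cell Slco2a1 was seen in 66.9% of 127 cells with Hpgd and 27.1% of 129 cells without it in CKO+RI. The shares were 42.9% of 7 and 19.0% of 105 cells in Flox+RI, and 67.9% of 249 and 35.2% of 88 cells in Flox+ICI. Within general capillary cells the shares were 74.2% of 66 cells with Hpgd and 57.7% of 26 without it in CKO+RI, and 68% of 100 and 44.4% of 9 in Flox+ICI. Arterial cells had 62.5% of 16 and 17.6% of 17 in CKO+RI, and 62.1% of 29 and 46.7% of 15 in Flox+ICI. Venous cells had 54.5% of 11 and 15.4% of 13 in CKO+RI, and 52.4% of 21 and 26.7% of 15 in Flox+ICI. Angiogenic cells had 75% of 4 and 15.4% of 39 in CKO+RI, and lymphatic-gated cells 70% of 10 and 23.1% of 13 in Flox+ICI. Aerocytes did not show this order in both libraries, with 52.2% of 23 cells with Hpgd and 50% of 10 without it in CKO+RI, and 77.1% of 70 and 80% of 10 in Flox+ICI. Angiogenic cells of Flox+ICI had 80% of 5 and 12.5% of 16. General capillary cells of Flox+RI had 100% of 3 and 44.4% of 9. Lymphatic-gated cells of CKO+RI had 0% of 1 and 13.3% of 15. In Flox+RI venous cells had 0% of 1 and 18.2% of 11, and aerocytes 0% of 2 and 60% of 5. Within each subset the 95% intervals with and without Hpgd overlapped. Over the 31 pools of at least 50 cells (class by library), which share libraries and free RNA, Pearson's r between the log2 levels of these genes was 0.715.

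Ptgs1 (ENSMUSG00000047250, chr2:36230426-36252272, + strand), the cyclooxygenase most tissues express at rest, was highest among whole classes, relative to all UMIs, in alveolar type 2 cells, at 142 CPM [118 to 168], 186 CPM [151 to 227] and 170.5 CPM [148 to 195]. The mesothelial cells within the fibroblast-like class had 155 CPM [124 to 191], 285 CPM [202 to 392] and 265 CPM [32.1 to 956] from 87, 38 and 2 UMIs. Tumour cells had 58.1, 52.6 and 67.5 CPM from 5140, 3657 and 3238 UMIs, which varied little within the named class. The ratio was 1.11 for CKO+RI over Flox+RI [1.06 to 1.15] and 0.778 for Flox+RI over Flox+ICI [0.742 to 0.816]. These ratios leave out the unnamed cluster 0, whose markers scored highest for tumour cells and which had 1283, 62 and 34 cells. Cluster 0 held 3490 Ptgs1 UMIs in CKO+RI and 54 in Flox+RI, at 93.5 CPM pooled over the libraries. The unnamed clusters held 38.6% of all Ptgs1 UMIs in CKO+RI. In endothelial cells Ptgs1 was at 60.2 CPM [48.6 to 73.8], 18.2 CPM [9.98 to 30.6] and 112 CPM [94.9 to 132], from 93, 14 and 149 UMIs. There it was 3.30-fold higher in CKO+RI than in Flox+RI [1.87 to 6.27] and 6.15-fold lower in Flox+RI than in Flox+ICI [3.55 to 11.5]. Per tumour-marker UMI the endothelial class had 2.73, 2.80 and 8.85 times as much Ptgs1 as the tumour class.

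Among the subsets, general capillary cells had 30 Ptgs1 UMIs in CKO+RI, 0 in the 14 cells of Flox+RI and 55 in Flox+ICI. Angiogenic cells had 35.9, 13.4 and 21.9 CPM. Aerocytes had 37.8, 35.9 and 87.6 CPM from 4, 1 and 22 UMIs, a ratio of 1.05 for CKO+RI over Flox+RI [0.104 to 51.8]. Venous cells had 85.6, 69.9 and 135 CPM from 14, 4 and 26 UMIs, where this ratio was 1.22 [0.385 to 5.11]. Arterial cells had 22, 0 and 12 UMIs, and lymphatic-gated cells 1, 1 and 14. In these aerocyte, venous, arterial and lymphatic-gated cells, Flox+RI held too few UMIs to show whether the whole-class difference held. Unlike in the whole endothelial class, Ptgs1 in neutrophils was highest in Flox+RI, at 21.2, 42.9 and 12.2 CPM from 25, 46 and 23 UMIs. Neutrophils of CKO+RI were 2.02-fold lower than those of Flox+RI [1.22 to 3.44], and those of Flox+RI 3.53-fold higher than those of Flox+ICI [2.1 to 6.1]. Summed tumour markers in neutrophils had the same order, at 497, 822 and 313 CPM. Per 1000 tumour-marker UMIs neutrophils held 42.7 [27.6 to 63.0], 52.2 [38.2 to 69.6] and 38.9 [24.7 to 58.4] Ptgs1 UMIs. These intervals overlap, and the part of tumour RNA in neutrophil Ptgs1 was not tested. In cluster 9, which held nearly all Flox+RI neutrophils, Ptgs1 was at 24.9, 44.3 and 18.1 CPM. The ratio of CKO+RI to Flox+RI in the whole class passed 2-fold in 5 of 11 other ways of processing the cells. Macrophages had 33.1, 25.4 and 15.9 CPM, ratios of 1.30 for CKO+RI over Flox+RI [1.05 to 1.6] and 1.6 for Flox+RI over Flox+ICI [1.24 to 2.07]. Per 1000 tumour-marker UMIs macrophages held 90.3, 78.4 and 84.9 Ptgs1 UMIs, and the part of tumour RNA was not tested there either. An antisense gene, Gm43621, overlaps exons of Ptgs1, and no source used here says whether the counting was strand-aware, so reads of the pair cannot be told apart.

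Ptgs2 (ENSMUSG00000032487, chr1:150100031-150108227, + strand), the inducible cyclooxygenase of inflammation, was highest among whole classes, relative to all UMIs, in neutrophils. Neutrophils had 151, 229 and 173 UMIs of it, or 128 CPM [109 to 150], 214 CPM [187 to 243] and 91.5 CPM [78.4 to 106]. The ratio of CKO+RI to Flox+RI was 0.60 [0.485 to 0.740], and Flox+RI was 2.34-fold higher than Flox+ICI [1.91 to 2.86]. Different clusters make up this class: cluster 8, led by Retnlg, Ngp and Camp, held 383 of the 632 neutrophils of CKO+RI, 28 of 1410 in Flox+RI and 541 of 1619 in Flox+ICI, while cluster 9, led by Il1b and Il1r2, held the rest. Ngp and Camp are granule genes of less mature neutrophils, and Il1b encodes an inflammatory cytokine.

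Within cluster 9 the order of CKO+RI and Flox+RI was the reverse of that in the whole class. Ptgs2 was at 333 CPM in CKO+RI [273 to 402], 220.5 CPM in Flox+RI [193 to 251] and 148 CPM in Flox+ICI [125 to 173]. CKO+RI was 1.51-fold higher than Flox+RI [1.19 to 1.91], and Flox+RI 1.49-fold higher than Flox+ICI [1.21 to 1.84]. At 1000 UMIs a cell, 23.3% of 146, 13.3% of 128 and 9.09% of 396 cluster 9 cells had a Ptgs2 UMI, against 0.568%, 0.187% and 0.119% of T cells, whose unthinned median depths were 2787, 1328 and 1500 UMIs. Cluster 8 had 44, 0 and 18 UMIs of Ptgs2, or 51.4 CPM in CKO+RI and 21.4 CPM in Flox+ICI, well under cluster 9. The unnamed cluster 23, led by Ccl3, Ccrl2 and Clec4d, was almost a Flox+RI cluster, with 7, 2743 and 69 cells. It had 3, 209 and 18 Ptgs2 UMIs, or 87.8 CPM in Flox+RI [76.3 to 101] and 313 CPM in Flox+ICI [185 to 494]. With cluster 23 counted as neutrophils the class ratio was 1.02 for CKO+RI over Flox+RI and 1.29 for Flox+RI over Flox+ICI, and thinned to 1000 UMIs a cell the first was 1.40. The Ptgs2 difference between the whole neutrophil classes of CKO+RI and Flox+RI thus had no stable direction.

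Macrophages had 40.2, 51.9 and 32.2 CPM of Ptgs2 from 196, 441 and 178 UMIs, a ratio of 0.775 for CKO+RI over Flox+RI [0.652 to 0.919] and 1.61 for Flox+RI over Flox+ICI [1.35 to 1.93]. Cluster 5, led by C1qa and Mrc1, held 453 of 578 macrophages in CKO+RI, and cluster 18, led by Apoe, Arg1 and Gpnmb, held 1373 of 1920 in Flox+RI and 673 of 1033 in Flox+ICI. In cluster 5 Ptgs2 was at 37.3, 24.6 and 28.5 CPM, and in cluster 18 at 51.5, 62.7 and 34.1 CPM. In cluster 5 the ratio of CKO+RI to Flox+RI was 1.52 [1.11 to 2.09], the reverse of the order in the whole class. In cluster 18 it was 0.822 [0.603 to 1.10], an interval that spans 1, so no order could be read there.

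Tumour cells had 21.0, 15.4 and 24.5 CPM of Ptgs2 from 1854, 1074 and 1176 UMIs. The ratio was 1.36 for CKO+RI over Flox+RI [1.26 to 1.46] and 0.629 for Flox+RI over Flox+ICI [0.579 to 0.684]. Cluster 6, led by Sema3a and Ereg, had the most, at 73.6, 26.3 and 57.5 CPM in 199, 515 and 548 cells. There CKO+RI was 2.80-fold higher than Flox+RI [2.32 to 3.36] and Flox+RI 2.18-fold lower than Flox+ICI [1.86 to 2.57]. Cluster 1, the main tumour cluster of CKO+RI, had 10.7, 11.1 and 9.65 CPM, which lie close together. Mesothelial cells had 39.1 CPM in CKO+RI and 218 CPM in Flox+RI from 22 and 29 UMIs. Endothelial cells had 18, 8 and 2 UMIs, against a tumour class at 15.4 CPM or more and tumour markers among them as given above. Per tumour-marker UMI the endothelial class had 1.46 [0.865 to 2.32], 5.45 [2.35 to 10.8] and 0.327 [0.0395 to 1.18] times as much Ptgs2 as the tumour class. The source of these UMIs was not tested.

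**Figure D5:**
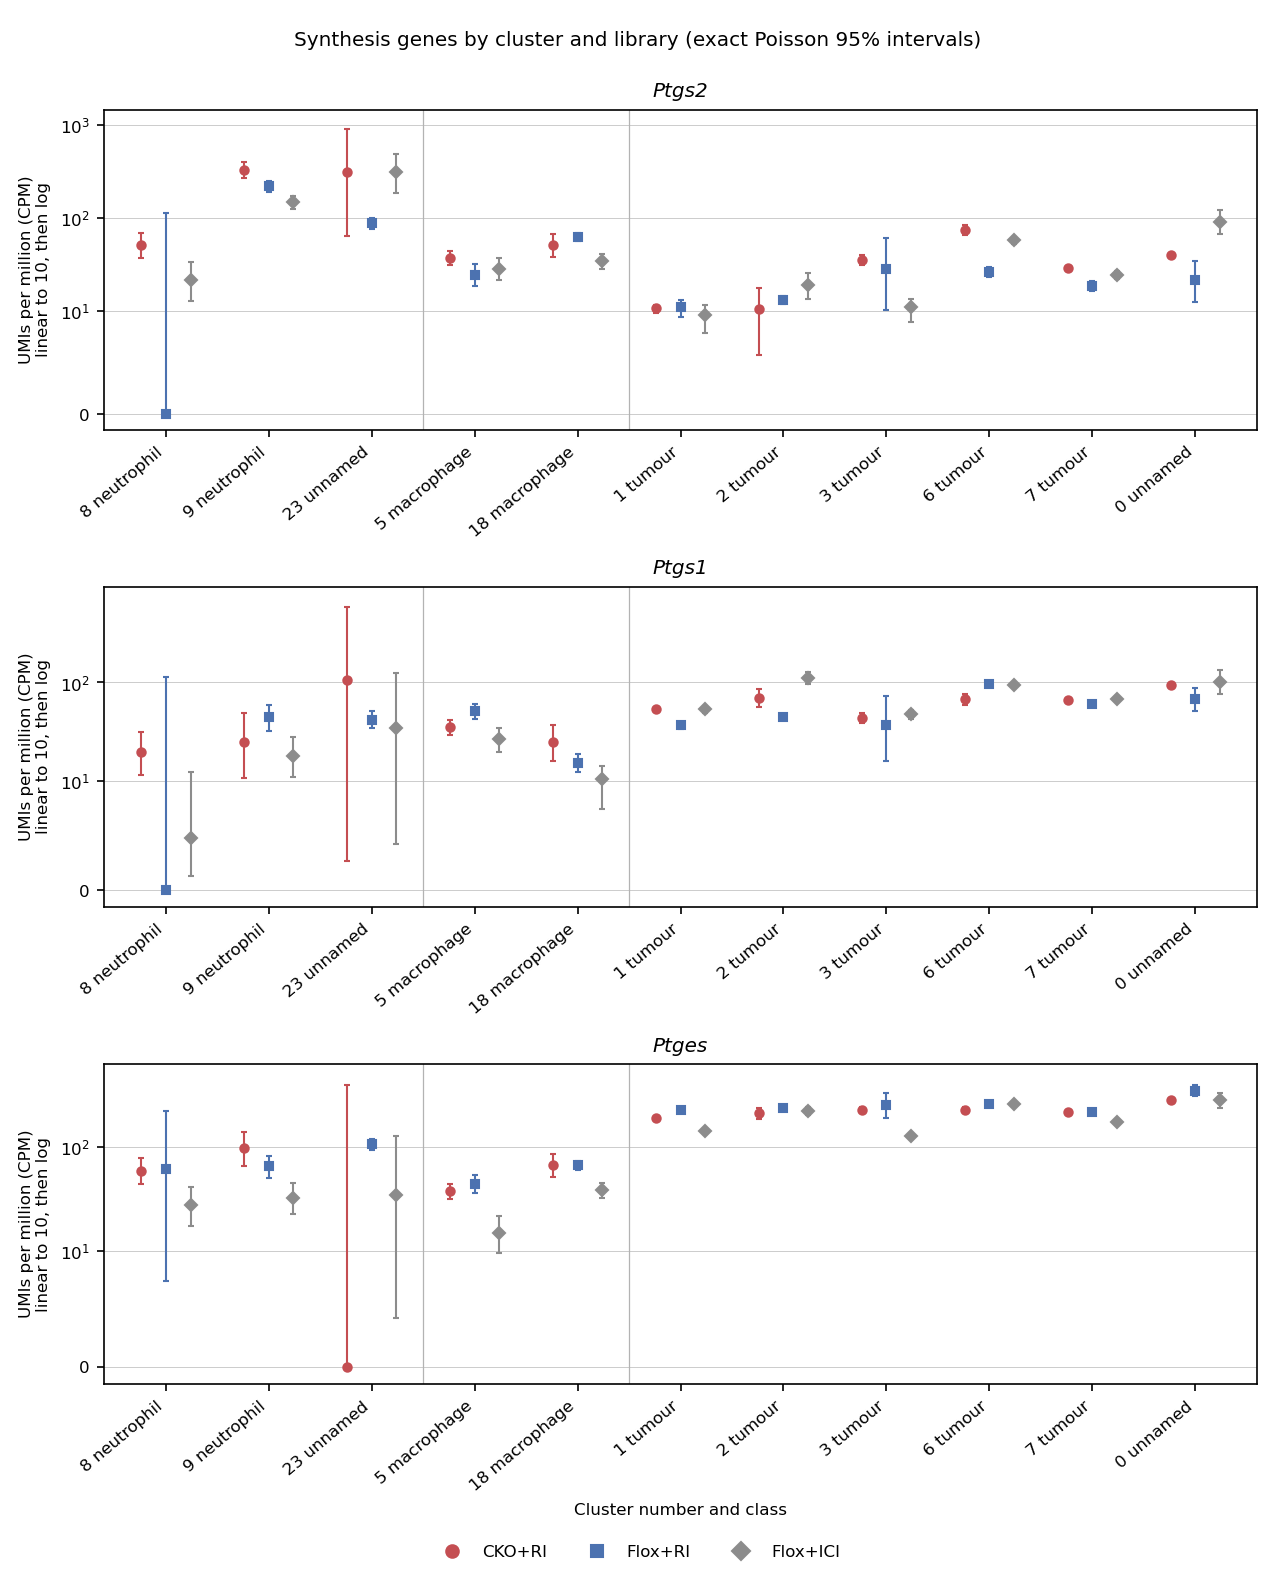
Levels of Ptgs2, Ptgs1 and Ptges (CPM, linear below 10 and logarithmic above, exact Poisson 95% intervals) in neutrophil, macrophage and tumour clusters and in the unnamed clusters 23 and 0, for CKO+RI, Flox+RI and Flox+ICI. Ptgs2 in neutrophil cluster 9 is 333 CPM in CKO+RI, 220.5 CPM in Flox+RI and 148 CPM in Flox+ICI, while Ptges lies between 127 and 258 CPM in all 5 tumour clusters.

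Ptges (ENSMUSG00000050737, chr2:30889471-30929863, - strand), an inducible enzyme that makes prostaglandin E, was a tumour-cell gene in all 3 libraries. Tumour cells had 17895, 16047 and 8356 UMIs of it, or 202 CPM [199 to 205], 231 CPM [227 to 234] and 174 CPM [171 to 178]. CKO+RI was at 0.877 of Flox+RI [0.858 to 0.896] and Flox+RI at 1.32 of Flox+ICI [1.29 to 1.36], small ratios whose narrow intervals count molecules and not mice. A Ptges UMI was seen in 90.9%, 88.4% and 79.6% of tumour cells, and in 16.4%, 19.1% and 14.99% at 1000 UMIs a cell, against 4.17%, 4.29% and 1.31% of T cells. Each tumour cluster carried it, from 189 to 226 CPM in CKO+RI, 214 to 256 CPM in Flox+RI and 127 to 258 CPM in Flox+ICI. The unnamed cluster 0, led by Lum, Dcn and Sema3a and holding 1283, 62 and 34 cells, was higher still at 279, 344 and 281 CPM, and the unnamed clusters held 36.3% of all Ptges UMIs in CKO+RI.

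Other classes carried Ptges beside tumour markers. Endothelial cells had 98.4 CPM [83.4 to 115], 37.8 CPM [25.3 to 54.3] and 52.7 CPM [41.1 to 66.6], a ratio of 2.60 for CKO+RI over Flox+RI [1.74 to 4.02] and 0.717 for Flox+RI over Flox+ICI [0.448 to 1.12]. Per 1000 tumour-marker UMIs the endothelial class held 81.7, 66.5 and 75.8 Ptges UMIs, and the tumour class 63.8, 50.3 and 47.1. Relative to the tumour class that was 1.28 [1.08 to 1.5], 1.32 [0.885 to 1.90] and 1.61 [1.25 to 2.04] times as much, and alveolar type 2 cells stood at 1.16, 0.963 and 1.20 times. The endothelial and alveolar type 2 ratios of Ptges to tumour markers were thus within 1.61 times that of tumour cells. Within the endothelium Ptges was uneven. In CKO+RI 69 of the 152 UMIs lay in 44 arterial cells, at 173 CPM. Aerocytes had 113 CPM there, and general capillary, angiogenic and venous cells 65.5, 59.8 and 48.9 CPM. Arterial cells had 1 UMI in Flox+RI (3 cells) and 10 in Flox+ICI (58 cells). In angiogenic cells the ratio of CKO+RI to Flox+RI was 1.63 [0.843 to 3.13]. The endothelial Ptges log2 ratio of CKO+RI to Flox+RI, 1.38, was 0.57 at 1000 UMIs a cell and 0.65 with a marker gate in place of clusters, both under 2-fold. Macrophages had 1.85, 3.69 and 3.42 times as much Ptges per tumour-marker UMI as the tumour class, and neutrophils 2.17, 1.56 and 2.05 times.

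Macrophage Ptges was at 43.3, 60.2 and 30.2 CPM from 211, 511 and 167 UMIs. The ratio was 0.720 for CKO+RI over Flox+RI [0.611 to 0.847] and 1.99 for Flox+RI over Flox+ICI [1.67 to 2.38]. Clusters 5 and 18 gave 37.3 and 66.4 CPM in CKO+RI, 44.2 and 66.5 CPM in Flox+RI, and 14.8 and 38.3 CPM in Flox+ICI, so cluster 18 was the higher in each library. Neutrophils had 68.8, 64.4 and 30.2 CPM from 81, 69 and 57 UMIs, with a ratio of 1.07 for CKO+RI over Flox+RI [0.765 to 1.49] and 2.14 for Flox+RI over Flox+ICI [1.48 to 3.09]. Summed tumour markers were 366, 324 and 188 CPM in macrophages and 497, 822 and 313 CPM in neutrophils, with 7 of 9 detected and Prl2c2 and Prl2c3 at 0 in macrophages, and their part in these ratios was not tested. T cells, which are not known for this enzyme, had 43.7, 39.4 and 17.2 CPM of Ptges, a ratio of 2.30 for Flox+RI over Flox+ICI [1.43 to 3.73] that is as large as those of macrophages and neutrophils.

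Ptges in tumour cells was also set against their cyclooxygenase Ptgs1. At 1000 UMIs a cell Ptges was seen in 15.2% of tumour cells with a Ptgs1 UMI and 16.5% of those without one in CKO+RI. The shares were 20.9% and 19.0% in Flox+RI and 18.8% and 14.7% in Flox+ICI, so no order was common to the libraries.

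Ptgds (ENSMUSG00000015090, chr2:25466709-25470046, - strand), which makes prostaglandin D, was barely detected. It had 56 UMIs in all kept cells, 27, 2 and 27 by library. Tumour cells held 21, 2 and 25 of them, at 0.237, 0.0287 and 0.521 CPM. The ratio of CKO+RI to Flox+RI was 8.26 [2.02 to 72.6], and Flox+RI was 18.1-fold lower than Flox+ICI [4.52 to 158], on levels at which a single UMI falls in fewer than 1% of cells.

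The receptors, Ptger4 (ENSMUSG00000039942, chr15:5206661-5244187, - strand) and Ptger2 (ENSMUSG00000037759, chr14:44988195-45003820, + strand), were seen mostly in immune cells, with small differences between libraries in macrophages. Ptger4 had 1514 UMIs in all kept cells, of which macrophages held 47.0%, and Ptger2 had 259, of which macrophages held 41.7%. Macrophage Ptger4 was at 40.7 CPM [35.2 to 46.7], 35.2 CPM [31.3 to 39.4] and 38.7 CPM [33.7 to 44.3]. Its ratio was 1.16 for CKO+RI over Flox+RI [0.960 to 1.39] and 0.909 for Flox+RI over Flox+ICI [0.760 to 1.09], so any change beyond 1.39-fold up or 1.32-fold down lies outside both counting intervals. T cells had 41.1, 41.1 and 54.7 CPM of Ptger4 from 78, 48 and 102 UMIs, and the ratio of CKO+RI to Flox+RI was 0.998 [0.688 to 1.46].

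Alveolar macrophages had 42.7, 25.1 and 59.2 CPM of Ptger4 from 48, 4 and 52 UMIs, and NK cells had 5, 1 and 20 UMIs. Neutrophil Ptger4 was at 13.6, 8.40 and 12.2 CPM, and tumour cells were below 1 CPM in each library. Endothelial cells had 2, 0 and 1 UMIs of Ptger4 and none of Ptger2, in 386, 126 and 491 cells. Exons of Ptger4 overlap those of Ttc33 on the other strand, and exons of Ptger2 overlap the antisense genes Gm49364 and Gm17173, so these counts carry the doubt over strand stated for Ptgs1.

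Macrophage Ptger2 was at 5.54 CPM [3.65 to 8.07], 6.0 CPM [4.47 to 7.89] and 5.43 CPM [3.66 to 7.75] from 27, 51 and 30 UMIs. Its ratio of 0.923 for CKO+RI over Flox+RI [0.557 to 1.5] and of 1.11 for Flox+RI over Flox+ICI [0.691 to 1.80] have intervals that span 1. In T cells Ptger2 had 19, 3 and 10 UMIs. CKO+RI was 3.89-fold higher than Flox+RI there [1.15 to 20.5], a wide interval set by 3 UMIs. Alveolar macrophages had 13.3, 6.27 and 6.84 CPM of Ptger2. Pooled over libraries they stood at 10.2 CPM [6.38 to 15.4], the fibroblast-like class at 8.44 CPM [5.41 to 12.6] and its fibroblast-gated cells at 12.2 CPM [6.84 to 20.2], whose intervals overlap. Tumour cells had 6, 3 and 0 UMIs.

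Between CKO+RI, as labelled, and Flox+RI a gene was counted where its level differed at least 2-fold, with at least 20 UMIs in both libraries together and at least 50 cells in each. In endothelial cells 4 of the 5 members measured were higher (Hpgd, Slco2a1, Ptgs1 and Ptges) and 0 lower, against 13.1% of all 9590 genes higher and 5.21% lower. In tumour cells 2 of 7 were higher (Hpgd and Ptgds) and 0 lower, against 4.84% and 9.48% of 16598 genes. In macrophages 1 of 6 was higher (Hpgd) and 0 lower, against 6.59% and 9.65% of 12567 genes. In neutrophils 0 of 4 were higher and 1 lower (Ptgs1), against 5.48% and 11.5% of 7668 genes. The median log2 ratio of the members was 1.38 in endothelial cells, 0.49 in tumour cells, 0.05 in macrophages and -0.32 in neutrophils, beside 0.12, 0.00, 0.10 and -0.20 over all genes tested. The members were chosen for such differences, so the counts describe the choice and carry no weight of their own.

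For Flox+RI against Flox+ICI 0 of the 4 members measured in endothelial cells were higher and 3 lower (Hpgd, Slco2a1 and Ptgs1), against 4.85% and 13.9% of 9266 genes. In tumour cells 0 of 7 were higher and 3 lower (Hpgd, Slco2a1 and Ptgds), against 3.48% and 8.66% of 16412 genes. In macrophages 0 of 6 were higher and 1 lower (Hpgd), against 3.8% and 3.31% of 12783 genes. In neutrophils 3 of 4 were higher (Ptgs1, Ptgs2 and Ptges) and 0 lower, against 16.0% and 4.57% of 8120 genes. The median log2 ratio of the members was -2.30, -0.67, 0.41 and 1.16 in the same order of classes, beside -0.15, -0.24, -0.10 and 0.32 over all genes.

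Among the 41 other pathway genes the endothelium had 5 higher and 2 lower of 20 measured in CKO+RI against Flox+RI. Pla2g4a, the cytosolic phospholipase that frees arachidonic acid, had 20 UMIs in CKO+RI and 2 in Flox+RI, a ratio of 4.97 [1.21 to 43.8]. Pla2g7, which breaks down platelet-activating factor, had 20 and 4 UMIs. The lower genes were Abcc4, a prostaglandin exporter, at 39.5 CPM in CKO+RI and 83.4 CPM in Flox+RI, and Ltc4s, a leukotriene synthase, at 22.0 and 45.6 CPM. In Flox+RI against Flox+ICI 2 were higher and 4 lower of 18. Abcc4 was at 83.4 CPM in Flox+RI and 28.6 CPM in Flox+ICI, a ratio of 2.91 [1.92 to 4.47]. Over the whole class Flox+RI had the highest level of Abcc4 and the lowest of Slco2a1. Abcc4 was not measured by subset, and angiogenic cells were 14.2%, 59.5% and 5.70% of the class. The part of this makeup in the class levels was not tested. Pla2g6, another phospholipase, was at 23.5 CPM in Flox+RI and 11.3 CPM in Flox+ICI. Cbr2, a carbonyl reductase, had 3 endothelial UMIs in Flox+RI and 44 in Flox+ICI. Pooled over the libraries Cbr2 was at 4138 CPM in airway or alveolar type 1 epithelial cells and 1870 CPM in alveolar type 2 cells. The part of lung epithelial RNA in the Cbr2 values here and in the classes below was not tested. Alox5ap, which presents arachidonic acid to a lipoxygenase, had 8 endothelial UMIs in Flox+RI and 38 in Flox+ICI.

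In tumour cells 3 were higher and 5 lower of 35 measured in CKO+RI against Flox+RI. Pla2g7 was at 29.0 CPM in CKO+RI and 11.7 CPM in Flox+RI, a ratio of 2.48 [2.29 to 2.68], and the secreted phospholipase Pla2g2d was at 0.599 and 0.201 CPM. Ptgir, the prostacyclin receptor, was at 0.271 CPM in CKO+RI and 2.06 CPM in Flox+RI, and Ptger3, a further prostaglandin E receptor, had 11 and 47 UMIs. In Flox+RI against Flox+ICI 0 were higher and 2 lower of 34. The lower ones were Pla2g2d, with 14 UMIs in Flox+RI and 25 in Flox+ICI, and Cbr2, at 1.65 and 7.47 CPM. The largest ratios upwards stayed under 2, at 1.95 for Prxl2b, a prostaglandin F synthase, and 1.55 for Ptgis, the prostacyclin synthase, which was at 32.4 CPM in Flox+RI and 20.9 CPM in Flox+ICI.

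In macrophages 3 were higher and 4 lower of 30 measured in CKO+RI against Flox+RI. Cbr2 was at 157 CPM in CKO+RI and 51.9 CPM in Flox+RI, and the lipoxygenase Alox5 at 11.3 and 5.53 CPM. Alox15, another lipoxygenase, had 0 UMIs in CKO+RI and 198 in Flox+RI, at least 37.8-fold lower in CKO+RI when its level is set at a floor of 3 counts. Tbxa2r, the thromboxane receptor, had 4 and 74 UMIs. In Flox+RI against Flox+ICI 4 were higher and 0 lower of 31. Ptgis was at 14.4 CPM in Flox+RI and 1.81 CPM in Flox+ICI, a ratio of 7.93 [4.17 to 17.0], and Alox15 at 23.3 and 3.98 CPM, a ratio of 5.85 [3.76 to 9.55]. Cbr3, a carbonyl reductase, and Ptgir had the lowest ratios, 0.570 and 0.564. Cluster 18 held most Flox+RI macrophages and cluster 5 most of those in CKO+RI, as given above.

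In neutrophils 2 were higher and 4 lower of 16 measured in CKO+RI against Flox+RI. Cbr2 had 23 UMIs in CKO+RI and 4 in Flox+RI, and Tbxas1, the thromboxane synthase, was at 25.5 and 10.3 CPM. Ltc4s was at 6.79 CPM in CKO+RI and 29.9 CPM in Flox+RI, and Cbr1, a carbonyl reductase, had 9 and 20 UMIs. In Flox+RI against Flox+ICI 7 were higher and 3 lower of 20. Ltc4s was at 29.9 CPM in Flox+RI and 4.23 CPM in Flox+ICI, a ratio of 7.06 [3.19 to 17.7], and Ptgr1, a prostaglandin reductase, had 13 and 7 UMIs. Cbr2 had 4 and 42 UMIs, and Cbr3 had 8 and 31. Pooled over libraries, Alox5ap was highest in neutrophils, at 2384 CPM, and Ptgis in the fibroblast-like class, at 448 CPM. Tbxas1 was at 202.5 CPM in alveolar macrophages and 183 CPM in macrophages. These genes were chosen after their values were seen.

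The genes most like each member were sought by Pearson's r of log2 levels over the same 31 pools, a description with no test. Hpgd was followed most closely by B4galt4 (r = 0.956), Tmem100 (0.949) and Gja4 (0.949), and Slco2a1 by Ttll7 (0.972), Plxna2 (0.966) and Cadps2 (0.965). Ptges was most like Hmga2 (0.873), a marker of the tumour class here, then Ncs1 (0.863) and Hoxa7 (0.862). Ptgs1 was most like Clu (0.838), Bmp1 (0.837) and Tle2 (0.834), and Ptgs2 like Marcksl1 (0.793), Chac1 (0.759) and Ptgs2os2 (0.759), a transcript named as lying opposite Ptgs2. Ptger4 was most like Arhgef6 (0.912), Galnt6 (0.888) and Myo1g (0.888), and Ptger2 like Il1rl2 (0.753), Egr2 (0.713) and Igf1 (0.70). Ptgds had too few UMIs for this.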

How the data were processed

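Raw UMI counts per gene and barcode were deposited by the authors as filtered matrices for 3 libraries, made with Cell Ranger 6.0 on GRCm38 (mm10), per the submitters' processing notes. Seurat 5.0.3 is named there too. The file headers name Cell Ranger 6.1.2. A barcode was kept if it had 200 or more genes and no more than 20% of its UMIs from mitochondrial genes, and the highest doublet scores (scrublet in scanpy 1.11.5) were removed at 0.8% per 1000 barcodes, 653, 1367 and 914 cells. Cells were clustered from 2000 variable genes, 30 principal components and 15 neighbours (Leiden, resolution 1.0). Classes and subsets were named from marker lists, with thresholds set after the data were seen. Hpgd was among the leading genes of the endothelial clusters and 3 members were among the variable genes, so no cluster was tested against the rest. UMIs were summed per class (numpy 2.4.6, scipy 1.17.1), and called at 2-fold with at least 20 UMIs. Subsets and clusters under 50 cells were to be given as UMIs and cells only, and their CPM and ratios were added with the data known. The calculation was tested on simulated data. The members, lists and the rule for named genes (all members, and the 2 highest and 2 lowest ratios of other pathway genes per class) were chosen with earlier results of these data known.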

Additional observations from a re-analysis of the deposited data

How the results depend on the processing

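All 18 member differences past 2-fold kept their direction under every alternative that gave a value. Over the main classes 8 member and class pairs passed 2-fold for CKO+RI against Flox+RI (7 higher, 1 lower) and 10 for Flox+RI against Flox+ICI (3 higher, 7 lower). The lower pair was Ptgs1 in neutrophils, and the number of lower pairs was 0 with no doublets removed, with members kept out of the variable genes, with median ratio scaling, with cluster 23 added to the neutrophils and with thinning to 1000 UMIs, and 2 with no minimum of UMIs. With equal weight per cell it was 1, but Ptgs1 in neutrophils (log2 ratio -0.80) was under 2-fold there and Ptgs2 in endothelial cells (-1.03) was past it. With thinning 4 pairs passed in all for CKO+RI against Flox+RI, 4 of them higher, and 6 for Flox+RI against Flox+ICI, 3 of them lower. Fewer pairs then met the minimum of UMIs (14 against 22, and 12 against 21), and endothelial Ptges fell below 2-fold (0.57). With no minimum 5 were higher for Flox+RI against Flox+ICI. The endothelial Hpgd log2 ratio for CKO+RI over Flox+RI, 3.68, was 2.98 at 10% mitochondrial UMIs and 3.09 with equal weight per cell. For Flox+RI over Flox+ICI, -4.97, it was -3.92 with equal weight and -4.28 with thinning, and the cause was not tested. Of the member ratios under all alternatives, 402 stayed within the counting interval and 51 did not. Of the levels by class 829 stayed and 131 did not, and of those in endothelial subsets 74 stayed and 64 did not. Classes free of other cells' marker UMIs held 11, 4 and 36 endothelial cells, so that alternative was run for subsets only, where 9 of 10 levels lay outside the counting interval. Low UMI numbers limit the receptors and Ptgds, and cell numbers (14 and 10) the Flox+RI capillary subsets. No paired analysis was possible because each group has 1 library and the labels give no replicate numbers.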
